A study of Mus musculus with 2 samples.

Results

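The small leucine-rich proteoglycans are represented here by 10 genes, Dcn, Bgn, Aspn, Ecm2, Fmod, Lum, Prelp, Kera, Omd and Ogn, taken by symbol from the 34285 genes of each count table. Single cells came from mandibular first molars and surrounding tissue of C57BL/6J mice at PN15.5. In the Lipo-Clo library the mice had received clodronate liposomes, which deplete macrophages, at 40 μg/g on PN3.5, then PN6.5, then PN9.5 and lastly PN12.5, and in the Lipo-PBS library they had received vehicle liposomes. Each condition is 1 library, and the number of mice in each is not given in the sources used here. No difference between the conditions therefore has a replicate check, and no p-value is given. Liposomes were injected into the abdomen, so phagocytes outside the tooth were exposed as well, and the digested tissue was not limited to the tooth.

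These proteins share a core of leucine-rich repeats and bind collagen fibrils, whose diameter and spacing they regulate. Decorin (Dcn) and biglycan (Bgn) carry chondroitin or dermatan sulfate chains and can bind TGF-β, asporin (Aspn) is their close relative and is also known as periodontal ligament-associated protein, and Ecm2 encodes a related matrix protein. Fibromodulin (Fmod), lumican (Lum), keratocan (Kera), osteomodulin (Omd) and Prelp form the group that includes the keratan sulfate proteoglycans of cornea, tendon and bone, and osteoglycin (Ogn) belongs to a further group.

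Several members are neighbours in the genome. Ecm2, Aspn, Omd and Ogn follow each other on chromosome 13, Dcn, Lum and Kera on chromosome 10, and Prelp and Fmod on chromosome 1. Each of these stretches has 0 other protein-coding genes between its members, and Bgn lies on chromosome X. Genes that are not protein-coding lie between Lum and Kera (4930473O22Rik) and between Prelp and Fmod (Bmncr and Gm18970). Promoter windows of 300 bases, each from 250 bases before to 50 after the start site, were held by the RefSeq table (build GRCm38.p6, which is not the build named for the counts) for 8 of the 10 members. The chromosome 13 windows are shown because their genes lie side by side and yet differed in the cells that held them and in the size of the difference between libraries. All 4 lie on the plus strand, at chr13:49504560-49504859 for Ecm2, chr13:49544193-49544492 for Aspn, chr13:49582212-49582511 for Omd and chr13:49607765-49608064 for Ogn. Capitals mark the letters TATAAA of a TATA box or TGTGGT of a RUNX motif, on either strand.
Ecm2: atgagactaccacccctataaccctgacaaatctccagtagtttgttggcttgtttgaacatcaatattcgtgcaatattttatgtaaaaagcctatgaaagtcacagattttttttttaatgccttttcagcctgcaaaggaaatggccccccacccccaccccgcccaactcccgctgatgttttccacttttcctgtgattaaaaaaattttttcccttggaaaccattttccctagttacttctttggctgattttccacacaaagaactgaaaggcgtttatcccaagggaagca
Aspn: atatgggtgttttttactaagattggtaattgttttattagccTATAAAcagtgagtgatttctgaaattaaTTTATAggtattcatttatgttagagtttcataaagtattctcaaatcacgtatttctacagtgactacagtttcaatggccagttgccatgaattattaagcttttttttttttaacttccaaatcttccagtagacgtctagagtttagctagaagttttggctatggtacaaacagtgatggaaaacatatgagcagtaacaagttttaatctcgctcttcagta
Omd: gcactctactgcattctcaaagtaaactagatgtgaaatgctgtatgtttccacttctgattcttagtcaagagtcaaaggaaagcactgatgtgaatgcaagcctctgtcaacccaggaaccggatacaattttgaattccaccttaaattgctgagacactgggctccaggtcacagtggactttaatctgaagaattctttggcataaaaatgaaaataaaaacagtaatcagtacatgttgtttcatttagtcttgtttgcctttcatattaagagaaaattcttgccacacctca
Ogn: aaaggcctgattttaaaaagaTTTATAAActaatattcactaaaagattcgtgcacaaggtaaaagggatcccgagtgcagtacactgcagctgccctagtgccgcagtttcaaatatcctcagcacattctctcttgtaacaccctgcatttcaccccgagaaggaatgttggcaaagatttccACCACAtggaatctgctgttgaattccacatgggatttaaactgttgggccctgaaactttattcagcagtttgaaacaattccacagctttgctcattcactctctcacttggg
The letters TATAAA occurred in the Aspn window, 207 and 178 bases before the start site, and in the Ogn window, as 2 overlapping matches on opposite strands 229 and 227 bases before it. They occurred in neither the Ecm2 nor the Omd window, and in 13.6% of all 32817 windows. The RUNX letters occurred in the Ogn window alone among the 8 members, 65 bases before the start, and in 16.8% of all windows. The E-box CANNTG occurred in 5 of 8 member windows against 72.3% of all, the SMAD letters CAGAC in 2 of 8 against 49.6%, and the AP-1 motif TGANTCA in 0 of 8 against 7.81%. The GC content of the shown windows was 31% for Aspn, 37.7% for Omd, 41% for Ecm2 and 42.3% for Ogn. These are letter matches in a short window and describe no binding.

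The Lipo-Clo library held 9362 cells with 31053404 unique molecular identifiers (UMIs), and the Lipo-PBS library 9653 cells with 30537834. After filters, 8254 and 8261 cells formed 25 clusters, and the members were left out of the genes used for clustering. Dental mesenchyme held 4402 Lipo-Clo and 4129 Lipo-PBS cells with 15157068 and 13765120 UMIs. Its clusters were named from 8 general mesenchymal markers or from lists for narrower cell kinds. Those were osteoblast or cementoblast, odontoblast, fibroblast, periodontal ligament, dental follicle, and papilla or pulp lists. Clusters led by Lrrc4c (777 cells) and Ctnnd2 (597 cells) met the papilla or pulp list but not the general one. Of the 8 general markers, 7 (such as Col1a1 at 36243 against 5616 CPM) were higher and Prrx1 (225 against 498 CPM) lower than in perivascular cells. Macrophages, the cells targeted, were 116 of the Lipo-Clo cells (1.41%) and 167 of the Lipo-PBS cells (2.02%). Haemoglobin genes took 2.61% of mesenchymal UMIs in Lipo-Clo and 5.43% in Lipo-PBS, and mitochondrial genes 0.375% and 1.63%. Of the unnamed clusters, 1 held markers of several lineages in 11 Lipo-Clo and 776 Lipo-PBS cells. Where they moved, ratios of the members with all unnamed clusters with mesenchymal markers counted as mesenchyme are given beside the main ones. That choice also took in a cluster led by the MHC class II gene H2-Eb1 (117 Lipo-Clo and 153 Lipo-PBS cells). It further took in a cluster led by Cstdc5 that held neutrophil markers (0 Lipo-Clo and 60 Lipo-PBS cells). The libraries shared 30 cell barcodes, 0.320% of Lipo-Clo and 0.311% of Lipo-PBS.

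Levels are UMI counts scaled to the same total in each class or state, written CPM, and are compared within a gene, since they are not divided by gene length. Where a pair of values is given, Lipo-Clo comes first. With both libraries pooled, dental mesenchyme held the highest level of 9 of the 10 members among the named cell classes. This was 9 of 10 in Lipo-PBS alone and 8 of 10 in Lipo-Clo alone, where Aspn was higher in perivascular cells. The pooled exception was Ecm2, at 25.2 CPM in mesenchyme, 57.7 CPM in perivascular cells and 54.1 CPM in endothelium. Every member was also counted at a low level in neutrophils, B cells and erythroid cells as one group, which are not known as a source of these proteins. In those cells together the level was 9.25 to 23.5% of the mesenchymal level in Lipo-Clo and 3.46 to 27.4% in Lipo-PBS. For Lum, Dcn, Bgn, Aspn, Omd and Ogn it was 9.25 to 12.6% in either library. Levels of that size were read as background from free RNA, which was not tested. The pooled classes were not alike. In Lipo-PBS, Dcn was at 421 CPM in neutrophils, 61.7 CPM in B cells and 89.7 CPM in erythroid cells. Lum was there at 548, 118 and 151 CPM. Neutrophils were 582 of the 1478 pooled cells in Lipo-Clo and 233 of 808 in Lipo-PBS, so the pooled background also depends on this mix.

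Perivascular cells stood clear of this background for part of the family. Aspn was at 687 CPM (95% interval 631 to 747) in Lipo-Clo perivascular cells and at 814 CPM (766 to 864) in those of Lipo-PBS, against 70.2 and 105 CPM in the background cells. In Lipo-Clo this was above the mesenchymal 563 CPM (551 to 575), and in Lipo-PBS below the mesenchymal 1123 CPM (1106 to 1141). A UMI of Aspn was found in 54.1% of Lipo-Clo and 62.0% of Lipo-PBS perivascular cells (median 1506 and 1844.5 UMIs per cell), against 11.3% and 17.6% of neutrophils (median 2836 and 2051 UMIs). Bgn was at 631 and 464 CPM there, against 75.6 and 104 CPM in background cells. Dcn, the closest relative of both, was at 113 and 244 CPM, against a background of 93.0 and 181 CPM. Thus Aspn and Bgn were counted in perivascular cells at levels 4.48 to 9.79 times the background, and Dcn at 1.21 to 1.35 times. Fmod was at 5.32 (Lipo-Clo) and 3.99 times (Lipo-PBS), on 29 and 68 UMIs, and Ogn at 2.33 and 3.96 times, on 68 and 244 UMIs. Omd was at 4.29 and 1.33 times, Prelp at 5.45 and 1.18 times and Lum at 1.49 and 1.54 times.

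Among whole cell classes, Ecm2 had its highest level outside the mesenchyme in each library. In perivascular cells it was at 50.1 (Lipo-Clo) and 62.1 CPM (Lipo-PBS), and in endothelium at 37.4 and 65.8 CPM, against 3.31 and 8.84 CPM in background cells. Over all mesenchyme the levels were 14.1 and 37.5 CPM, so perivascular and endothelial cells were above mesenchyme as a whole in each library. Parts of the mesenchyme, described below, were higher still. Fibroblast-like cells held 66.5 (Lipo-Clo) and 111 CPM (Lipo-PBS), and the state led by Mgp and Abi3bp 57.6 and 81.7 CPM. Prelp in endothelium was at 17.2 (Lipo-Clo) and 69.1 CPM (Lipo-PBS), and with both libraries pooled it was at 47.6 CPM there and 49.0 CPM in mesenchyme. It led in endothelium instead of mesenchyme under 3 of the 9 other ways of filtering, clustering or thinning. Glia held Ogn at 66.4 (Lipo-Clo) and 183 CPM (Lipo-PBS), against background levels of 36.6 and 46.1 CPM, and 20 and 101 UMIs lay behind these values. In neutrophils alone Ogn was at 60.3 (Lipo-Clo) and 94.2 CPM (Lipo-PBS), so in Lipo-Clo the glial level was near that of neutrophils. Perivascular cells held Ogn at levels like those in glia, 85.3 and 183 CPM.

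**Figure D1:**
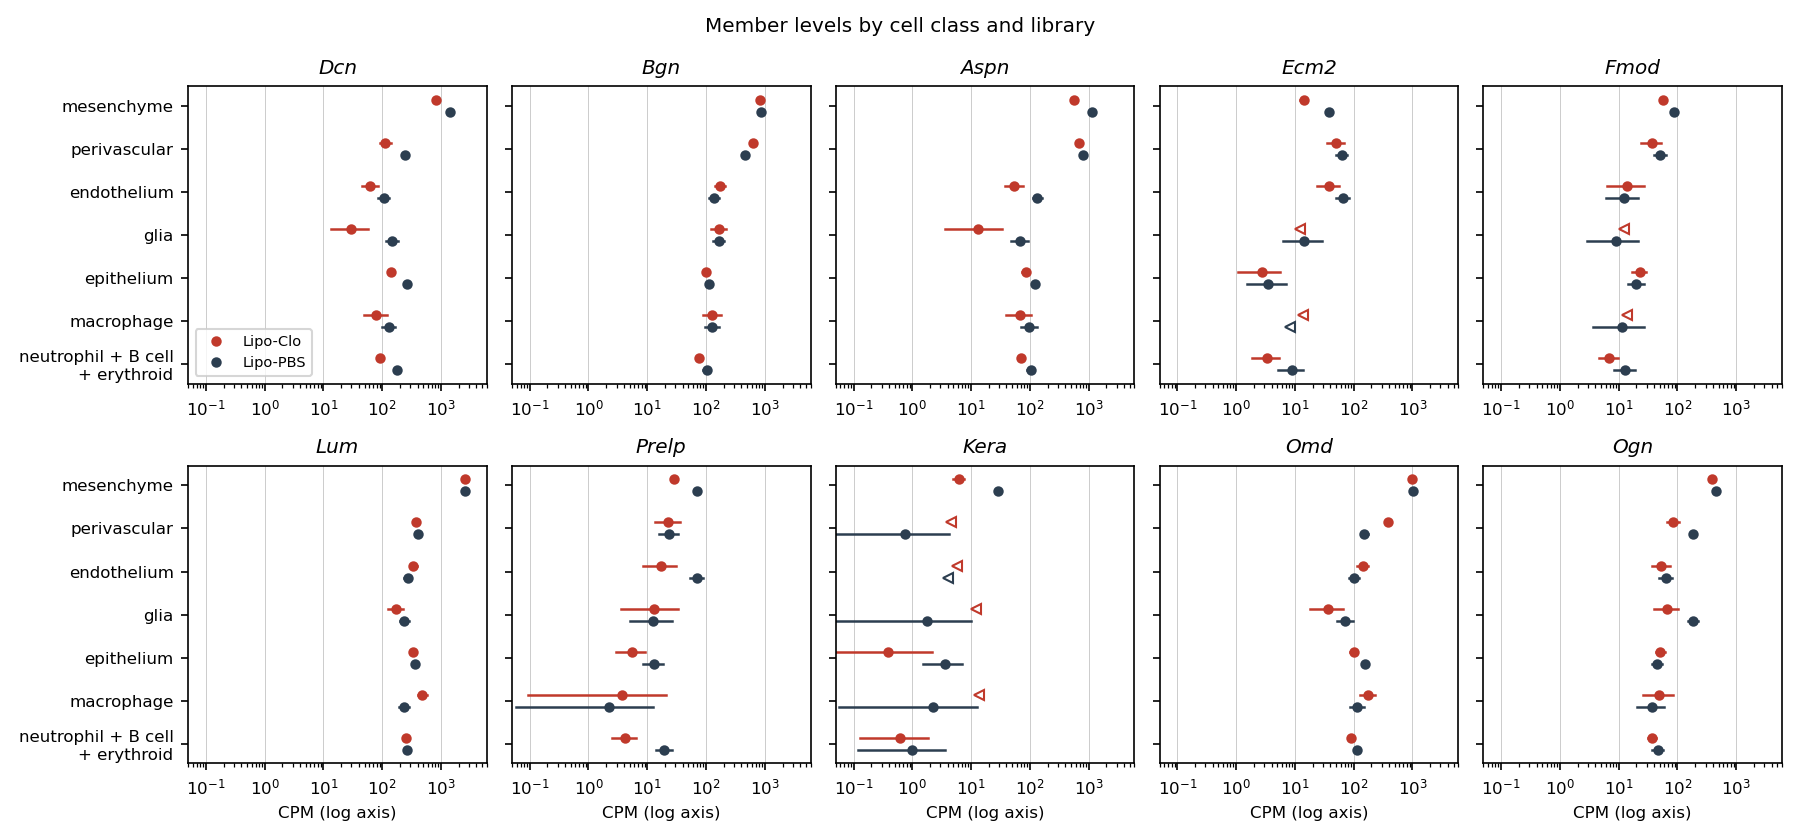
Level of each member (CPM, log axis) by cell class, with 1 point per library (red Lipo-Clo, dark Lipo-PBS) and bars for the exact Poisson 95% interval; open triangles mark the upper bound where no UMI was counted. Mesenchyme was highest for 9 of 10 members in Lipo-PBS and 8 of 10 in Lipo-Clo, and Aspn and Bgn were also high in perivascular cells. Ecm2 was higher in perivascular cells and endothelium than in mesenchyme as a whole.

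The mesenchyme was divided into 11 states, 8 with names from marker lists and 3 named by their leading genes. Those 3 were led by Mgp and Abi3bp, by Pcp4 and Mmp13, and by the haemoglobin genes Hba-a2 and Hba-a1 (35.6 and 35.1% haemoglobin UMIs). The periodontal ligament list did not single out the state named for it. Its mean log2 ratio to the median state was 1.06 there, 1.28 in dental follicle-like cells and 1.70 in the state led by Mgp and Abi3bp. Both of the latter met another list more strongly (dental follicle at 3.28 and fibroblast at 2.33). The members spread over different states, and no state held the highest level of more than 4 of the 10. With the mesenchyme divided more coarsely, 6 were highest in a group where fibroblast-like cells were the most numerous. The state led by Mgp and Abi3bp, with 140 Lipo-Clo and 381 Lipo-PBS cells, was highest for Aspn, Fmod, Kera and Prelp. The fibroblast-like state, led by Mfap5, Clec3b and Cd34, was highest for Dcn and Ecm2. After each cell was thinned to 1000 UMIs, cells of the state led by Mgp and Abi3bp held on average 3.98 members in Lipo-Clo and 4.16 in Lipo-PBS, against 2.71 and 3.04 over all mesenchyme.

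Dcn, Bgn, Aspn and Ecm2 are described first. Dcn ranged from 335 CPM in the osteoblast or cementoblast-like state to 3988 CPM in the fibroblast-like state. The fibroblast-like state held 44.6% of the mesenchymal Dcn UMIs in 16.5% of the cells. The state led by Mgp and Abi3bp followed at 2575 CPM, and odontoblast-like cells, marked by Dspp and Dmp1, came next at 1728 CPM. Bgn varied less, from 200 CPM in the papilla or pulp-like state led by Ctnnd2 to 1312 CPM in odontoblast-like cells, a span of 6.55-fold against 11.9-fold for Dcn. Fibroblast-like cells followed closely at 1266 CPM. In Lipo-Clo fibroblast-like and odontoblast-like cells were at 1395 and 1391 CPM, and in Lipo-PBS at 1190 and 1197 CPM. Aspn had a 27.4-fold span and lay lowest at 72.9 CPM in odontoblast-like cells, 94.7 CPM in the papilla or pulp-like state led by Ctnnd2 and 109 CPM in osteoblast or cementoblast-like cells. It was highest in the state led by Mgp and Abi3bp (1996 CPM), in the periodontal ligament-like state (1696 CPM) and in fibroblast-like cells (1390 CPM). A UMI of Aspn was found in 66.8% of periodontal ligament-like but 8.75% of osteoblast or cementoblast-like cells, and since 13.1% of neutrophils held one, the latter share is at the level of background. Ecm2 was at 94.5 CPM in fibroblast-like cells, 75.6 CPM in the state led by Mgp and Abi3bp and at most 24.4 CPM in the other 9 states.

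Among the keratan sulfate group, Lum was present in every state, with a span of 3.44-fold, from 1177 CPM in the state led by Pcp4 and Mmp13 to 4051 CPM in dental follicle-like cells. Fmod had 2 peaks of like height, at 496 CPM in the state led by Mgp and Abi3bp and 485 CPM in the papilla or pulp-like state led by Ctnnd2, and lay at or below 57.3 CPM elsewhere. Which of them led differed between libraries, with 391 and 457 CPM in Lipo-Clo and 531 and 530 CPM in Lipo-PBS. Prelp shared both peaks, at 267 and 137 CPM, and was also at 172 CPM in fibroblast-like cells, where Fmod was at 33.9 CPM. Omd was highest in the papilla or pulp-like state led by Lrrc4c (2015 CPM) and in periodontal ligament-like cells (1588 CPM), and lowest in fibroblast-like cells (145 CPM), the state where Dcn was highest. Osteoblast or cementoblast-like cells, in which osteomodulin is best known, held 924 CPM.

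Kera, the keratocan gene, was the rarest of the 10 and the most concentrated. It had 93 UMIs in 25 Lipo-Clo cells and 391 UMIs in 82 Lipo-PBS cells of the mesenchyme, 61.0% of them in the state led by Mgp and Abi3bp, which held 6.11% of the cells. Over both libraries 18 cells held at least 50% of its UMIs. In that state Kera was at 158 (118 to 207) and 251 CPM (221 to 285), and it was seen in 7.86 and 9.71% of the cells, against 0.172 and 0.429% of neutrophils. No UMI of Kera was counted in odontoblast-like cells, which allows up to 4.19 (Lipo-Clo) and 6.12 CPM (Lipo-PBS) at a count of 3. Ogn, the osteoglycin gene, was 2.33 times higher in the state led by Pcp4 and Mmp13 (1412 CPM) than in the next, the periodontal ligament-like state (606 CPM), and was lowest in odontoblast-like cells (34.0 CPM). The leading state stayed the one given here for 8 of 10 members in Lipo-Clo alone and 9 of 10 in Lipo-PBS alone.

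**Figure D2:**
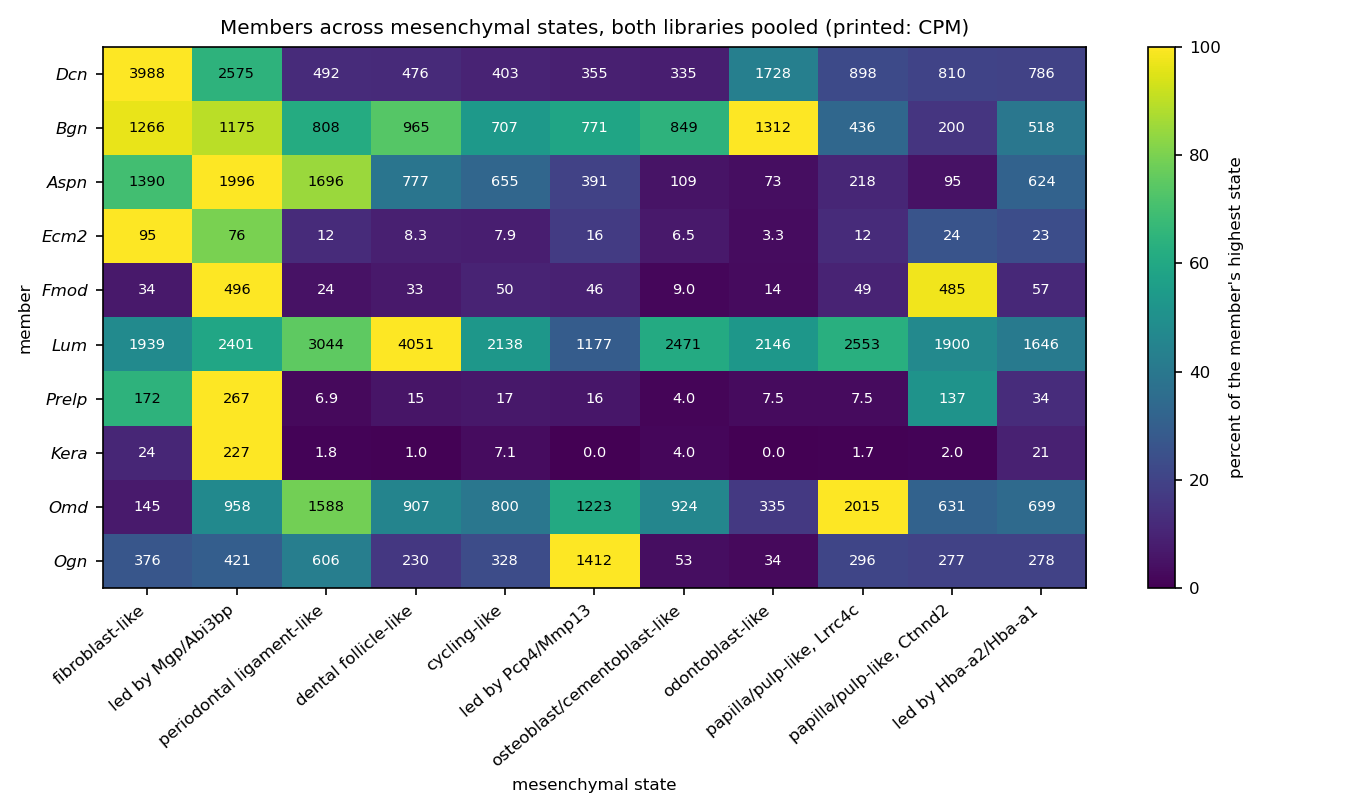
Level of each member (rows) in the 11 mesenchymal states (columns) with both libraries pooled; colour is the percent of the member's highest state and the printed value is CPM. Dcn and Ecm2 peaked in fibroblast-like cells, Aspn, Fmod, Kera and Prelp in the state led by Mgp and Abi3bp, Lum in dental follicle-like cells, and Omd in the papilla or pulp-like state led by Lrrc4c.

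Likeness between members is given as Pearson's r of log2(CPM + 1) over the 11 states, as a description, since the states share libraries and their number is small. Prelp and Ecm2 were most alike (r = 0.89), followed by Fmod and Prelp (0.79), and Dcn and Omd were most opposed (−0.65). Genomic neighbours were not uniformly alike, with r from −0.33 (Omd and Ecm2) to 0.64 (Aspn and Ogn) on chromosome 13, where Aspn and Omd had 0.03, and with −0.06 between Dcn and Lum on chromosome 10. Among the 4762 genes ranked, the gene nearest to Aspn was Itm2a (r = 0.98, the first of all in each library), followed by Dab2 (0.96, the second in each). The nearest to Ecm2 was Cygb (0.98) and to Prelp Add3 (0.95), then Fndc1 (0.94) and Abi3bp (0.94). The nearest to Bgn was Uqcc2 (0.93), to Ogn Myof (0.91), to Dcn S100a16 (0.87) and to Fmod Flrt2 (0.87). The nearest to Omd were Cib2 (0.85) and Mkx (0.84), a tendon and ligament transcription factor, and to Lum Kremen1 (0.75). This order pooled both libraries. Ranks in Lipo-Clo and Lipo-PBS alone were 8 and 15 for Cygb, 5 and 1 for Add3 and 3 and 8 for Uqcc2. They were 1 and 5 for Myof and for S100a16, 37 and 1 for Flrt2, 9 and 2 for Cib2 and 18 and 14 for Kremen1.

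In dental mesenchyme 9 of the 10 members were lower in Lipo-Clo than in Lipo-PBS with an interval that excludes 0, and the interval of Lum included 0. Of all 4771 genes in use, 51.2% were lower by sign and 37.2% were lower with such an interval. By at least 1.5-fold, 6 members were lower and 0 higher, where 5.32% of the genes in use were lower and 1.05% higher by that much (in use means detected in 10% or more of mesenchymal cells in either library). Kera did not reach this share of cells, so 5 of the 9 members in use were past the limit. Over all genes with at least 20 mesenchymal UMIs, which include Kera, 9.77% were lower and 5.72% higher by at least 1.5-fold. The median log2 ratio of the 10 members was −0.72, against −0.01 over the genes in use. All intervals are exact for the ratio of 2 Poisson counts and cover counting error within 1 library each, not the difference between mice.

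Mesenchymal Dcn was at 821 CPM (Lipo-Clo) and 1433 CPM (Lipo-PBS), a log2 ratio of −0.80 (−0.84 to −0.77). Aspn was at 563 and 1123 CPM (−0.997, −1.04 to −0.96), and Bgn at 817 and 875 CPM (−0.10, −0.13 to −0.06). The 3 closest relatives of the family were thus not alike, with Aspn and Dcn lower by 2.0 and 1.75-fold and Bgn by 1.07-fold. Ecm2 was at 14.1 and 37.5 CPM (−1.41, −1.65 to −1.18). Of the keratan sulfate group, Lum was at 2538 and 2515 CPM (0.01, −0.01 to 0.03) and Omd at 969 and 1002 CPM (−0.05, −0.08 to −0.01). Fmod was at 56.3 and 87.6 CPM (−0.64, −0.77 to −0.51), Prelp at 28.5 and 71.6 CPM (−1.33, −1.49 to −1.16) and Kera at 6.14 and 28.4 CPM (−2.21, −2.55 to −1.88). Ogn was at 383 and 457 CPM (−0.25, −0.31 to −0.20). Counting the unnamed clusters with mesenchymal markers as mesenchyme gave 0.0053 for Bgn and 0.11 for Omd, so the direction of those small differences is not fixed. The same choice gave −0.71 for Dcn, −0.85 for Aspn, 0.15 for Lum and −0.08 for Ogn, and left 5 members past 1.5-fold, without Fmod.

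The states made up different shares of the mesenchyme in the 2 libraries, and the levels above include that. Fibroblast-like cells were 12.6% of Lipo-Clo and 20.7% of Lipo-PBS mesenchyme, the state led by Mgp and Abi3bp 3.18 and 9.23%, and periodontal ligament-like cells 16.8 and 12.3%. Once each library was reweighted to one common mixture of states, that of both libraries pooled, 4 members, Aspn, Ecm2, Kera and Prelp, remained at least 1.5-fold lower, and the median log2 ratio was −0.34. Aspn moved least of them, from −0.997 to −0.80. Kera moved from −2.21 to −0.96, Ecm2 from −1.41 to −0.84, Prelp from −1.33 to −0.67, Dcn from −0.80 to −0.36 and Fmod from −0.64 to −0.32. Omd moved the other way, from −0.05 to −0.25. The Kera value at the common mixture includes the haemoglobin-led state, which held 0 Lipo-Clo and 62 Lipo-PBS UMIs of Kera. At the same mixture 4.59% of the genes in use were lower and 0.377% higher by at least 1.5-fold.

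**Figure D3:**
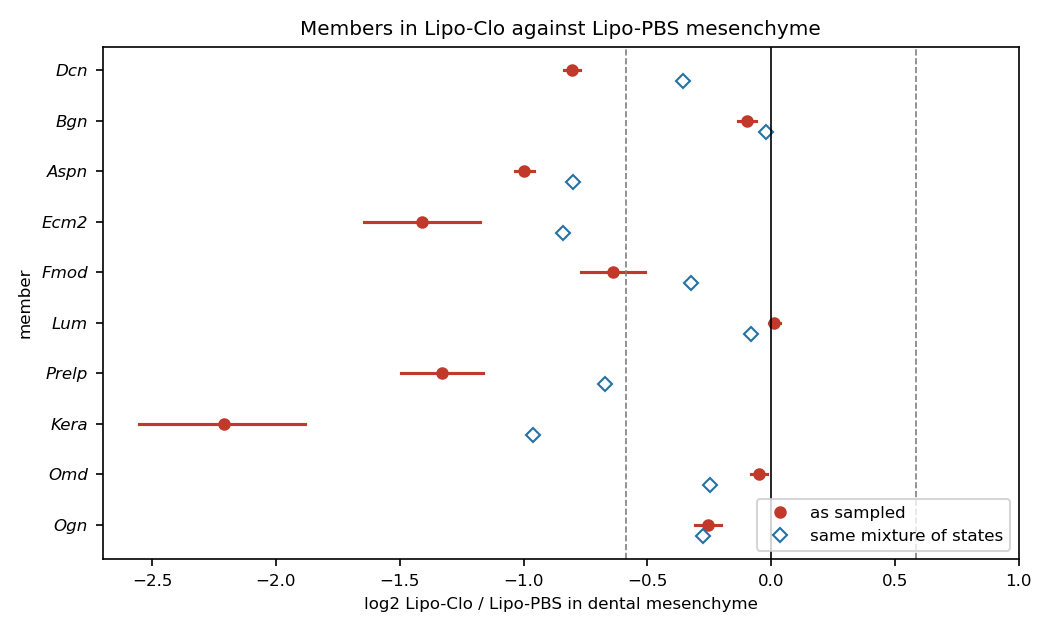
Log2 ratio of Lipo-Clo to Lipo-PBS for each member in dental mesenchyme, as sampled (red, with exact 95% interval for counting error) and after reweighting to one common mixture of states (open diamonds); dashed lines mark 1.5-fold. As sampled, 6 members lay below the lower line, and 4 did so at the same mixture.

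Markers of other lineages were counted in the same cells. Summed over the mesenchyme, the 7 erythroid markers were at 26178.5 (Lipo-Clo) and 54382 CPM (Lipo-PBS), the 9 neutrophil markers at 515 and 109 CPM, the 6 B cell markers at 210 and 370 CPM, the 8 epithelial markers at 329.6 and 229 CPM, the 8 perivascular markers at 285 and 353 CPM, and the endothelial, glial and macrophage lists each below 50 CPM. The B cell marker list includes Ebf1, which was in use in mesenchyme and followed Ecm2 over the states (r = 0.95). Its part in the B cell sum was not separated, so that sum is not read as RNA of B cells alone. B cells were 476 of the Lipo-Clo and 236 of the Lipo-PBS cells. What part markers of other lineages had in the differences was not tested. Leaving out the haemoglobin-led state, which was chosen after seeing the data, left Aspn at −1.05, Prelp at −1.39 and 6 members past the limit. In the background cells, read above as holding free RNA, Dcn also had a log2 ratio of −0.96 (−1.16 to −0.76) and Aspn −0.58 (−0.83 to −0.32). Prelp had −2.25 (−3.10 to −1.44), Ecm2 −1.42 (−2.48 to −0.36) and Fmod −0.90 (−1.69 to −0.10). Bgn had −0.45 (−0.70 to −0.20), Omd −0.34 (−0.57 to −0.10) and Ogn −0.33 (−0.70 to 0.04), and Kera −0.66 on 3 and 2 UMIs. Lum had −0.03 (−0.18 to 0.12), with −0.65 in neutrophils and 0.36 in erythroid cells. In these 2 classes, in the same order, Dcn had −1.65 and −0.51, Bgn −0.90 and −0.51, Omd −1.01 and 0.10 and Aspn −0.86 and −0.97. The pooled background ratios thus join classes that were not alike, which their intervals leave out.

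Within the states, Dcn was lower in Lipo-Clo in 11 of 11, in 10 of them with an interval below 0. How many of all genes in use were lower in as many states was not counted, so this is not read as particular to Dcn. The difference was small where Dcn was highest, at 3685 and 4168 CPM in fibroblast-like cells (−0.18, −0.23 to −0.13). It was larger where Dcn was low, at 372 and 657 CPM in periodontal ligament-like cells (−0.82, −0.94 to −0.70) and 371 and 623 CPM in dental follicle-like cells (−0.75, −0.86 to −0.63). Background cells held 93.0 and 181 CPM. In dental follicle-like cells 2 of the 6 members in use there, Dcn and Aspn, were at least 1.5-fold lower, against 14.6% of genes in use.

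Aspn was lower in 10 of 11 states, in 9 with an interval below 0. For this count too, the share of all genes in use that did so is not known. In periodontal ligament-like cells Aspn was at 1096 CPM for Lipo-Clo and 2518 CPM for Lipo-PBS (−1.20, −1.27 to −1.13), with a UMI in 62.1 and 73.7% of the cells. In that state 2 of the 6 members in use, Dcn and Aspn, were past 1.5-fold lower, against 8.95% of genes in use. In osteoblast or cementoblast-like cells Aspn was at 40.7 and 189 CPM (−2.21, −2.64 to −1.80), on 61 and 240 UMIs, where background cells held 70.2 and 105 CPM, so that the Lipo-Clo level was below the background. In dental follicle-like cells it was at 614 and 1005 CPM (−0.71, −0.80 to −0.62) and in fibroblast-like cells at 1035 and 1600 CPM (−0.63, −0.72 to −0.54). The state led by Mgp and Abi3bp, which scored higher on the periodontal ligament list (1.70 against 1.06), went the other way. There Aspn was at 2261 and 1906 CPM (0.25, 0.12 to 0.37). Accordingly Aspn was highest in the periodontal ligament-like state in Lipo-PBS, and in the state led by Mgp and Abi3bp in Lipo-Clo.

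Bgn, Lum and Omd had differences of both signs, with log2 ratios between −0.44 and 0.23 for Bgn and for Lum, and between −0.56 and 0.18 for Omd. Bgn was at 1395 and 1190 CPM in fibroblast-like cells (0.23, 0.14 to 0.32) and at 710 and 943 CPM in periodontal ligament-like cells (−0.41, −0.50 to −0.32). Omd was at 1325 and 1948 CPM in periodontal ligament-like cells (−0.56, −0.62 to −0.49) and at 954 and 842 CPM in dental follicle-like cells (0.18, 0.09 to 0.26). The 6 members in use in periodontal ligament-like cells, Dcn, Bgn, Lum, Aspn, Omd and Ogn, were each lower with an interval below 0. So were the same 6 in osteoblast or cementoblast-like cells. In the haemoglobin-led state Dcn, Bgn, Lum, Aspn, Omd and Prelp were, and the intervals of Fmod and Ogn included 0. The share of all genes in use with such an interval was not counted by state, and over all mesenchyme it was 37.2%. Lum in periodontal ligament-like cells was at 2919 and 3214 CPM (−0.14, −0.19 to −0.09).

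Ogn was lower where it was highest, at 1174 and 1702 CPM in the state led by Pcp4 and Mmp13 (−0.54, −0.63 to −0.44), and higher in dental follicle-like cells, at 245 and 209 CPM (0.23, 0.06 to 0.40). Fmod was at 60.4 and 26.7 CPM in the papilla or pulp-like state led by Lrrc4c (1.18, 0.50 to 1.92), on 96 and 22 UMIs, and at 20.9 and 41.6 CPM in fibroblast-like cells (−0.99, −1.66 to −0.37). In its 2 highest states Fmod had log2 ratios of −0.44 (−0.73 to −0.16) and −0.21 (−0.47 to 0.05). Prelp was at 164 and 302 CPM in the state led by Mgp and Abi3bp (−0.88, −1.33 to −0.46), at 120 and 204 CPM in fibroblast-like cells (−0.77, −1.04 to −0.51) and at 152 and 113 CPM in the papilla or pulp-like state led by Ctnnd2 (0.43, −0.10 to 0.97). Kera in the state led by Mgp and Abi3bp had a log2 ratio of −0.67 (−1.13 to −0.24), on 52 and 243 UMIs. In fibroblast-like cells Kera had −0.20 (−0.88 to 0.46), on 30 and 58 UMIs. Over all mesenchyme, 10 cells held 73.1% of the Kera UMIs in Lipo-Clo and 40.4% in Lipo-PBS. The intervals leave out such clumping. Ecm2 in fibroblast-like cells had −0.74 (−1.11 to −0.39). Among the 8 members in use in fibroblast-like cells 3, Aspn, Prelp and Ecm2, were past 1.5-fold lower, where 12.6% of genes in use were, and among the 9 in use in the state led by Mgp and Abi3bp 1, Prelp, was, where 15.4% were.

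**Figure D4:**
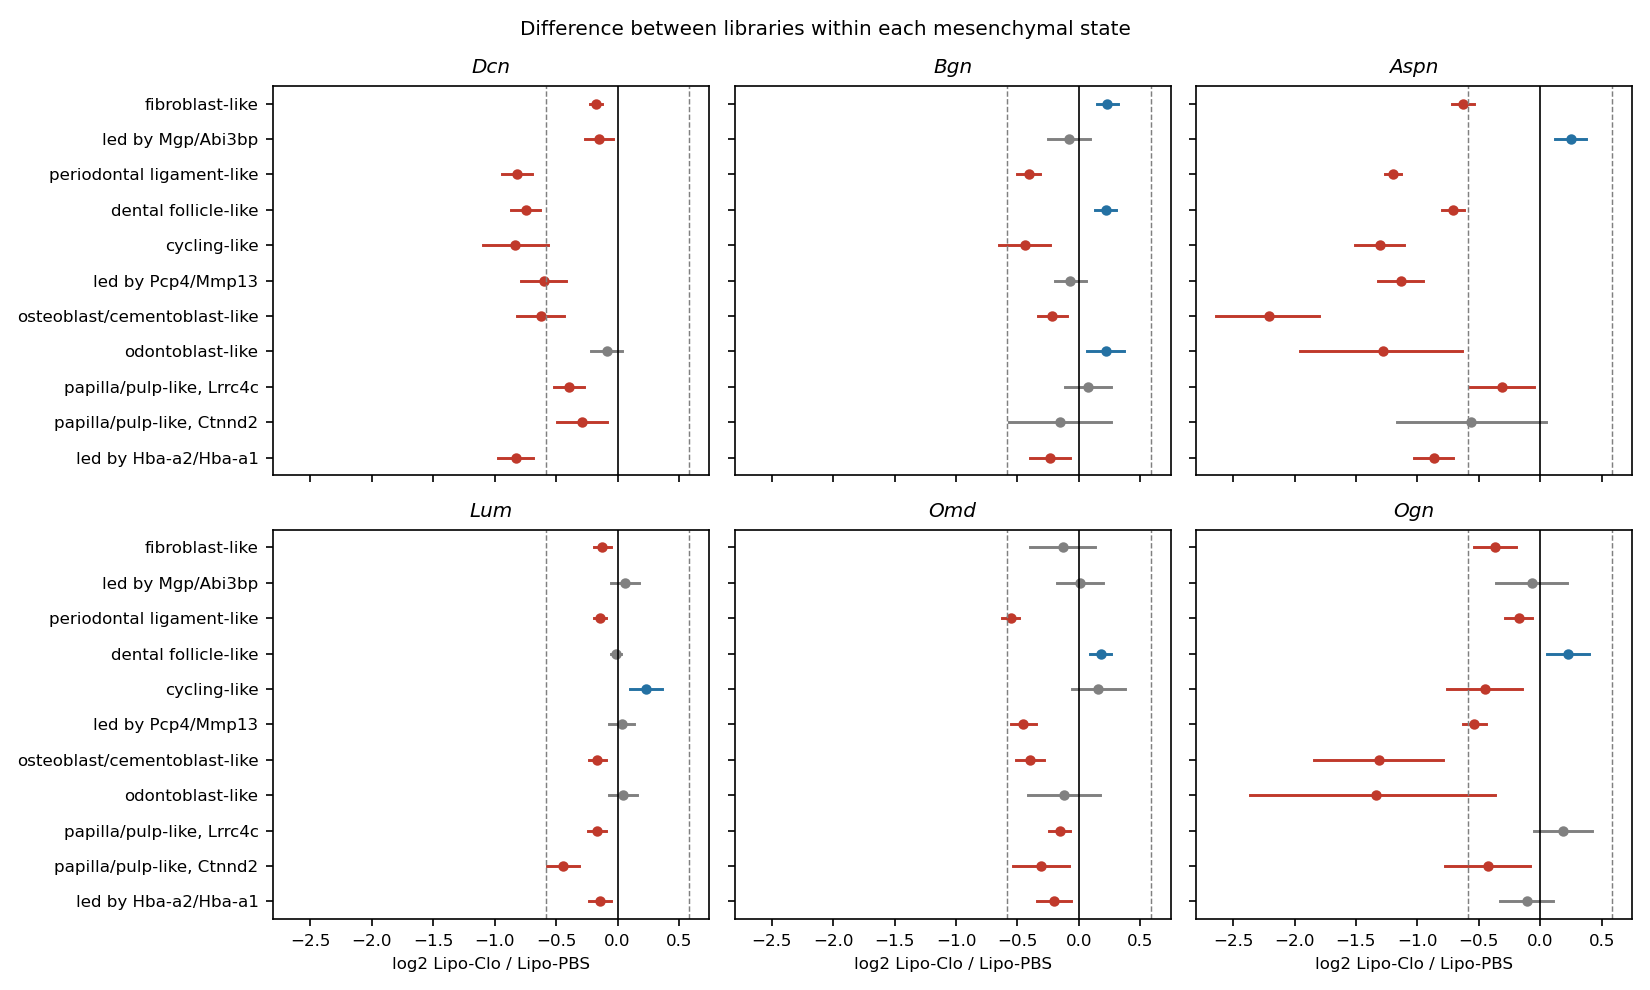
Log2 ratio of Lipo-Clo to Lipo-PBS for 6 members in each of the 11 mesenchymal states, with exact 95% intervals for counting error (red below 0, blue above 0, grey including 0; dashed lines at 1.5-fold). Dcn lay below 0 in 11 states and Aspn in 10, and Bgn, Lum, Omd and Ogn had states on both sides of 0. The same counts over all genes in use were not made.

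In perivascular cells, among the 7 members in use, Omd was at least 1.5-fold higher in Lipo-Clo and Dcn and Ogn were lower, where 5.57% of genes in use were higher and 5.42% lower. Omd was at 386 CPM (344 to 432) for Lipo-Clo and 151 CPM (131 to 174) for Lipo-PBS, a log2 ratio of 1.35 (1.09 to 1.62), against a background of 90.1 and 114 CPM. The share of cells with a UMI was 9.86% and 10.1%, below the 15.3% and 22.3% of the more deeply counted neutrophils, so the share is at the level of background and the difference lay in few cells. In Lipo-Clo 10 of 416 cells held 64.9% of the Omd UMIs, and in Lipo-PBS 10 of 584 cells held 54.5%. Aspn in perivascular cells, which was spread over more cells, had a log2 ratio of −0.24 (−0.39 to −0.09) and Bgn 0.44 (0.27 to 0.61). Dcn (−1.11, −1.47 to −0.77) and Ogn (−1.10, −1.51 to −0.71) were lower, on 90 and 68 UMIs in Lipo-Clo, and Dcn lay near its background in both libraries. In endothelium 2 of the 4 members in use, Dcn and Ecm2, were at least 1.5-fold lower, where 8.49% of genes in use were. Dcn (62.4 and 105 CPM) and Aspn (54.6 and 135 CPM) were near or below background there. Prelp, not in use there, had a log2 ratio of −2.01 (−3.08 to −1.07), on 11 and 63 UMIs, and Ecm2 −0.81 (−1.56 to −0.11).

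The genes that make, bind and process these proteins were listed by function. The counts below are of genes in use in mesenchyme by the sign of the log2 ratio as sampled, which was below 0 for 51.2% of all genes in use. Genes whose interval included 0 were counted as well. Of 10 collagen genes whose chains are bound by these proteins, 10 were in use, 9 lower and 1 higher. Their median was −0.19 as sampled and −0.06 at the same mixture, where some of the 9 were no longer lower. Col14a1 was at 115 and 281 CPM (−1.29, and −0.42 at the same mixture), Col12a1 at 1287 and 2289 CPM (−0.83, and −0.97) and Col5a2 at 1651 and 2112 CPM (−0.36, and −0.36). Both collagens past 1.5-fold as sampled, Col12a1 and Col14a1, encode chains that sit on the surface of collagen fibrils. Of 20 enzymes for the glycosaminoglycan linker and chondroitin or dermatan sulfate, 11 were in use, 8 lower and 3 higher, with a median of −0.08. Chsy3, a chondroitin synthase, had −0.95 (−1.12 to −0.78), Dsel, a dermatan sulfate epimerase relative, −0.52, and Chpf2, a chondroitin polymerizing factor, 0.38. Of 7 keratan sulfate enzymes only B4galt1, a galactosyltransferase, was in use, at 0.23.

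Of 9 processing enzymes 6 were in use, 4 lower and 2 higher, with a median of −0.37. Mmp13, a collagenase, was at 206 and 415 CPM (−1.01, and −1.20 at the same mixture), Mmp2 had −0.42 and Adamts5, an aggrecan-cleaving protease, −0.40. Of 12 receptors and growth factors that bind these proteins 8 were in use, 7 lower and 1 higher, with a median of −0.27. Egfr, a receptor bound by decorin, was at 32.1 and 63.6 CPM (−0.99, −1.15 to −0.82), Lrp1 had −0.35 and Bmp4 −0.34. Of 8 further small leucine-rich proteins, among them Podn, Chad and Tsku, 0 were in use.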

How the data were processed

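The deposited values are raw UMI counts for each gene in each cell, not normalized. Per the file headers they came from Cell Ranger 8.0.0, while the submitters' processing notes list Cell Ranger 3.1.0, Seurat 3.1.1, GRCm39 and mm39 without their roles. Cells with fewer than 200 genes (473 Lipo-Clo, 748 Lipo-PBS) or more than 20% mitochondrial UMIs (3 and 11) were removed. Scrublet (scanpy 1.11.5) called 0 and 1 doublets by its own threshold, so the highest scores, 7.11 and 7.12% of cells, were left out in their place. Without the members, 2000 variable genes, 30 components and 20 neighbours entered Leiden clustering (leidenalg 0.10.2, resolution 1; mesenchyme again with 20 components at 0.6), without batch correction.

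Names came from marker lists by rules settled with the clusters in view (at least 3 markers, each 2-fold above the median cluster and in 10% of cells). The members, lists and fold limit were chosen with earlier results of these data known. UMIs were summed per library and class or state, and ratios carry exact 95% Poisson intervals. With 1 library per condition there was no test and replicates, animals and batches could not be compared. Intervals were checked on simulated Poisson counts only. These leave out the clumping of UMIs in few cells, so coverage in the real counts was not tested. Named genes are the members, for each with at least 500 mesenchymal UMIs up to 3 genes nearest over states, and per list up to 3 genes in use with the largest ratio. Alternatives were other filters, clusterings and scalings, among them edgeR 4.0.16 TMM and DESeq2 1.42.0 size factors.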

Additional observations from a re-analysis of the deposited data

Results flagged for a closer look

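Bgn, Fmod, Lum, Aspn, Omd and Ogn had differences between libraries of opposite signs in 2 mesenchymal states, each with an interval clear of 0. How many of all genes in use do so was not counted, so this is not read as particular to the members. The difference between the states was not tested, since each condition is 1 library, and the values are log2 ratios of Lipo-Clo to Lipo-PBS. Bgn had 0.23 in fibroblast-like and −0.44 in cycling-like cells. Fmod had 1.18 in the papilla or pulp-like state led by Lrrc4c, on 96 and 22 UMIs. In fibroblast-like cells, where Fmod was not in use, it had −0.99, on 28 and 94 UMIs. Lum had 0.23 in cycling-like cells and −0.44 in the papilla or pulp-like state led by Ctnnd2. Aspn had 0.25 in the state led by Mgp and Abi3bp and −2.21 in osteoblast or cementoblast-like cells. Omd had 0.18 in dental follicle-like and −0.56 in periodontal ligament-like cells. Ogn had 0.23 in dental follicle-like and −1.31 in osteoblast or cementoblast-like cells. Aspn and Ogn in osteoblast or cementoblast-like cells were near the background of free RNA (Aspn at 40.7 and 189 CPM against 70.2 and 105, Ogn at 31.4 and 77.8 CPM against 36.6 and 46.1). The cycling-like state held 155 Lipo-Clo and 58 Lipo-PBS cells.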

How the results depend on the processing

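No paired analysis was possible because there is 1 library for each condition. Under 11 of 15 other ways of filtering, clustering, naming and scaling, 6 members were lower by at least 1.5-fold, under 3 (unnamed clusters counted as mesenchyme, mean over scaled cells, thinning) it was 5 without Fmod, and at the same mixture of states it was 4. Over these 15 ways, the share of genes in use that were lower by 1.5-fold lay between 3.44 and 6.61%. At a 2-fold limit 3 members were lower, with Aspn just short of it, and so were 1.03% of genes in use. In none of these ways was a member higher by 1.5-fold. The median log2 ratio of −0.72 was −0.58 as a mean over scaled cells, −0.57 with each cell thinned to 1000 UMIs and −0.34 at the same mixture. Aspn lay between −1.05 and −0.80, and Dcn between −0.85 and −0.36. Counting unnamed clusters with mesenchymal markers as mesenchyme turned Bgn to 0.0053 and Omd to 0.11, and the mean over scaled cells turned Omd to 0.026. The cause was not tested. The state with the highest level matched the one given for 4 of 10 members with the mesenchyme subclustered at Leiden 0.3, 6 at Leiden 1 and 6 with the members kept among the clustering genes. Each new group was matched to the given state most numerous in it. Fmod and Prelp changed state in each of these 3. At Leiden 0.3, 6 members (Dcn, Bgn, Aspn, Kera, Prelp and Ecm2) were highest in a group matched to the fibroblast-like state. Depth limits Kera most, at 93 UMIs in Lipo-Clo.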

Other observations

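Several relatives outside the 10 genes fell short of use in 10% of mesenchymal cells and are given as values. Podn, the podocan gene, was at 7.79 CPM in the mesenchyme of Lipo-Clo and 15.55 CPM in that of Lipo-PBS, a log2 ratio of −0.998 (−1.33 to −0.67), and Chad, the chondroadherin gene, at 1.19 and 3.20 CPM (−1.43, −2.31 to −0.61). Tsku, the tsukushi gene, was at 11.3 and 8.50 CPM (0.42, 0.07 to 0.77). These 3 were named after their values were seen. The unnamed cluster of 11 Lipo-Clo and 776 Lipo-PBS cells was led by Acta2. Lum was at 1383 CPM there, Dcn at 861 CPM, Aspn at 580 CPM and Bgn at 550 CPM. Dental mesenchyme of Lipo-PBS, the library of most of these cells, held more of each (2515, 1433, 1123 and 875 CPM).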
